A study of Mus musculus with 2 samples.

Results

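Car3-high hepatocytes of low depth were barcodes of a single-cell library of mouse liver that held few mRNA molecules and transcripts of Car3, the muscle and liver carbonic anhydrase. They were chosen by measured values. A barcode needed at least 500 genes, 1000 to under 10000 gene UMIs (unique molecular identifiers, each counting 1 captured mRNA molecule) and under 20% mitochondrial UMIs. It needed at least 1% of its gene UMIs from the hepatocyte genes Alb, Apoa1, Apoa2, Ttr and Fgb, under 0.5% from the MHC class II genes H2-Aa, H2-Ab1, H2-Eb1 and Cd74, and under 0.1% from Glul. It also needed at least 2 Car3 UMIs and at least 1 of Inmt, Sult2a8, Nnmt and Gnmt detected. Of the 13151 barcodes, 5701 passed the gates before Car3, and 3349 of those (58.7%) met the Car3 rule and are called members here. Another 564 held 1 Car3 UMI, 5 held 2 or more but none of the other 4 genes, and the 1783 with no Car3 UMI, called Car3-0 hepatocytes, were the comparison.

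The study expressed mutant NRAS in the hepatocytes of 3 female BL6 (C57BL/6) mice aged 6 to 8 weeks, by hydrodynamic tail vein injection of a Sleeping Beauty transposon together with a plasmid for the SB13 transposase. The transposon carried NRAS and the fluorescent protein mVenus on 1 transcript under CAGGS, a strong promoter active in all cell types. It held either oncogenic NRAS(G12V) or NRAS(G12V/D38A), a form that cannot signal to its effectors, so the control also carried a transgene and no mouse was left without one. Livers were taken on day 6, dissociated and sorted for mVenus, and the cells of each mouse were tagged with their own hashtag antibody and pooled into 1 library. The deposited hashtag table and the methods pair hashtags with constructs differently: hashtag 1 is D38A in the table and G12V in the methods, hashtag 3 the reverse, and hashtag 2 is G12V in both. Mice are therefore named by hashtag, and nothing below compares the constructs, of which the control had 1 mouse.

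Liver cells use methionine as the source of methyl groups. Mat1a makes S-adenosylmethionine from methionine, methyltransferases such as Gnmt, Nnmt and Inmt spend it on glycine, nicotinamide and indole amines, Ahcy clears the product, and Bhmt returns homocysteine to methionine with betaine. Car3 is a carbonic anhydrase of low hydration activity that is abundant in adult liver, muscle and fat, and Sult2a8 is a liver sulfotransferase. Hepatocytes differ along the lobule: those near the portal vein are rich in urea cycle and gluconeogenic enzymes, and those near the central vein in cytochrome P450 and glutamine enzymes.

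The hashtag oligonucleotides are shown because every value given per mouse rests on reading them, and the deposited table gives each as 15 bases.
Hashtag 1: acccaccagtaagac
Hashtag 2: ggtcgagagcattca
Hashtag 3: cttgccgcatgtcat

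The promoters of 3 genes are shown: Gnmt as a gene of the rule, and Ahcy and Spp1 because their transcripts stood apart in all 3 mice, Ahcy higher in members and Spp1, a secreted phosphoprotein of injured liver and bile duct, lower. Each is the 240 bases from 250 to 11 bases before the transcription start in RefSeq on GRCm38.p6, written along the gene's strand, and capitals mark motif matches on either strand. The windows are chr17:46729176-46729415 on the minus strand for Gnmt, chr2:155074508-155074747 on the minus strand for Ahcy and chr5:104434861-104435100 on the plus strand for Spp1. The capitals in Gnmt and Ahcy are the letters AGGTCA, read here from the other strand as TGACCT, and the letters CCAAT, read from the other strand as ATTGG. In Spp1 they are the letters TATAAA, then the letters GTTAAT of an HNF1 core, and then CCAAT read from the other strand.
Gnmt: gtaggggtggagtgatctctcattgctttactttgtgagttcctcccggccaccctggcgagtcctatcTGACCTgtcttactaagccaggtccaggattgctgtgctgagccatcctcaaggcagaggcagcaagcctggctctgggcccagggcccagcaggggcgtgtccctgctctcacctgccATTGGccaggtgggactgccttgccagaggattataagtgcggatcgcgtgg
Ahcy: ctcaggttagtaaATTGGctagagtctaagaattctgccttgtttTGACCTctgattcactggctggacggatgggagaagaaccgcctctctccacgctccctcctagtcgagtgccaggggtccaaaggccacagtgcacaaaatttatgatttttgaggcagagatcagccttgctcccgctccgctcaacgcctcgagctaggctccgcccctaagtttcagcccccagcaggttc
Spp1: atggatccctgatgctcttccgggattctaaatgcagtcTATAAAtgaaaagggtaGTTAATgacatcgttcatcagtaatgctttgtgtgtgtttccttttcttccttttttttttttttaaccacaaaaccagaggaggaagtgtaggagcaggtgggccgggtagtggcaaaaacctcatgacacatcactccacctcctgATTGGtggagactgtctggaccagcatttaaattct

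The same 5 motifs were counted in all 27025 windows of this length, and in those of the genes that stood apart in every mouse as defined below. AGGTCA, the core bound by nuclear receptors, was in 19.4% of the 248 windows found for the 318 genes higher in members, in 10.8% of the 601 windows found for the 776 lower genes, and in 13.4% of all windows. CCAAT was in 44.4%, 33.1% and 33.7%, in the same order. GTTAAT, a core of the HNF1 motif, was in 8.47%, 3.83% and 6.37%, and TTGCNNAA, the C/EBP motif, in 10.9%, 8.32% and 9.3%. TATAAA was in 12.1%, 6.82% and 12.7%. A match says only that these letters are in the window.

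Members held 1000 to 9971 gene UMIs with a median of 2419, and a median of 1054 genes, against medians of 2944 UMIs and 1090 genes in Car3-0 hepatocytes. Hepatocytes of at least 10000 UMIs with the same other gates, called deep here, numbered 2235 with a median of 39758 UMIs. The library held 142072118 gene UMIs in all. Of its barcodes, 13141 were also in the hashtag library, and 7437 got no hashtag call. Among members 97 were called for hashtag 1, 102 for hashtag 2 and 202 for hashtag 3, while 2926 (87.4%) were uncalled and 21 were called as hashtag doublets. Levels are CPM, the UMIs of a gene per 1000000 gene UMIs summed over a group, and bracketed ranges are 95% intervals that cover counting error only.

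The label was set beside hepatocyte genes that the gates did not use, in members and in barcodes with endothelial markers. These endothelial-like barcodes also had to hold under 1% of the 5 hepatocyte genes. Lower levels of other hepatocyte genes in them thus follow in part from the choice. Members held 30500 CPM of Fabp1, the liver fatty acid binding protein, 5851 CPM of Serpina1c, 2255 CPM of Apoc3 and 1889 CPM of Ahsg. The endothelial-like barcodes held 3465, 934, 341 and 400.2 CPM. Car3-0 hepatocytes were at 10515, 5142, 1958 and 3808 CPM and deep hepatocytes at 2402, 5348.5, 1997 and 6370.5 CPM, so Ahsg was lower in members than in either. The 5 hepatocyte genes of the gate made up a median of 2.1% of a member's UMIs. That was below the 3.08% of Car3-0 hepatocytes and the 6.63% of deep hepatocytes. The 0.531% of endothelial-like barcodes was lower by the way they were chosen. These 540 endothelial-like barcodes, of the same depth range, served as cells of another type, and 83.1% of them (449) were called for hashtag 3. Car3 was found in 146 of them, with a median of 5 UMIs in those and a highest value of 38, and whether it came from free RNA or from hepatocytes in the same droplet was not tested. Only 119 members reached 5% of hepatocyte genes, against 505 Car3-0 hepatocytes.

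Mitochondrial and nuclear RNA were lower in members than in Car3-0 hepatocytes, and lowest in the barcodes without a hashtag call. Their median mitochondrial share was 0.285%, against 0.422% in Car3-0 hepatocytes, 8.48% in deep hepatocytes and 4.53% in endothelial-like barcodes. Malat1, a long RNA that stays in the nucleus, was at 632 CPM in members and 2648 CPM in Car3-0 hepatocytes. Within members Malat1 was at 1667 CPM under hashtag 1, 1019 CPM under hashtag 2 and 4405 CPM under hashtag 3. Within Car3-0 hepatocytes it was at 9422, 7189 and 16102 CPM. The groups did not overlap in this gene, which was named for its large ratio. The uncalled barcodes, most of both groups, lay below every mouse, with 247 CPM of Malat1 in members and 1287 CPM in Car3-0 hepatocytes. The mitochondrial share was 0.267% in uncalled members and 0.591%, 0.358% and 3.93% in members of hashtags 1, 2 and 3, and in Car3-0 hepatocytes 0.336% and 2.31%, 3.66% and 7.86%. Values per mouse thus come from barcodes unlike most members in these measures. The part of nuclear RNA content in the results below was not tested.

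Markers of other cell types were present in some barcodes and differed by mouse. The 8 endothelial markers summed to 299.6 CPM in members and 590 CPM in Car3-0 hepatocytes, with no marker at 0. Under hashtag 3 they reached 2971 CPM in members and 7932 CPM in Car3-0 hepatocytes, and under hashtags 1 and 2 they stayed between 454 and 1251 CPM. At least 2 UMIs of endothelial, Kupffer, T, NK, B or neutrophil markers were found in 205 members, 103 of them among the 202 of hashtag 3, and in 191 Car3-0 hepatocytes, 96 of them among the 123 of hashtag 3. The 7 Kupffer markers summed to 12.9 CPM in members and 32.8 CPM in Car3-0 hepatocytes, and the 6 T and NK markers to 3.57 and 24.9 CPM. The 5 B cell markers summed to 6.95 and 60.9 CPM, and the 5 stellate markers to 4.15 and 26.5 CPM. In Car3-0 hepatocytes single barcodes held 335 of 386 B cell, 67 of 168 stellate and 92 of 208 Kupffer UMIs. Among members 1 barcode held 60 of 134 Kupffer UMIs. The 8 dendritic markers, 4 of them limited by the gate, were at 162 and 153 CPM. Neutrophil markers (80.4 CPM, from 9 members) and erythroid markers (92.1 CPM, with 947 of 954 UMIs in 1 barcode) came from few barcodes. The 5 cholangiocyte markers were at 863 CPM in members and 5127 CPM in Car3-0 hepatocytes, almost all of it Spp1, and Krt7 was at 0 in members.

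Of the 6 genes that mark these cells the rule used 5, so their values describe how members were chosen. On GRCm38 they lie at chr3:14863512-14872523 (Car3), chr13:93616675-93637961 (Bhmt), chr6:55170626-55175043 (Inmt), chr7:14410686-14446769 (Sult2a8), chr9:48591877-48605153 (Nnmt) and chr17:46725664-46729168 (Gnmt). Car3 itself, fixed by the rule, had a median of 7 UMIs per member and a highest value of 63. Gnmt was detected in 99.1% of members, 55.1% of Car3-0 hepatocytes and 26.5% of endothelial-like barcodes. The other 3 genes of the rule were rarer: Sult2a8 was detected in 84.6%, 18% and 21.9%, Inmt in 79.5%, 15.1% and 20.9%, and Nnmt in 30.9%, 2.69% and 9.63%, in the same order. For Sult2a8, Inmt and Nnmt the share in Car3-0 hepatocytes was below that in endothelial-like barcodes. All 4 genes were found in 834 members, 3 in 1664, 2 in 673 and 1 in 178.

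Bhmt was the only marker of the 6 that the rule did not use. It was detected in 80.3% of members (interval 78.9 to 81.6%), 16.8% of Car3-0 hepatocytes and 21.5% of endothelial-like barcodes, whose median depth of 3683 UMIs was above that of members. Bhmt was not particular to members: Glul-high hepatocytes of low depth held it in 66.0%, at 788 CPM. The level of Bhmt was 1120 CPM (1100 to 1141) in members and 79.3 CPM (72.5 to 86.6) in Car3-0 hepatocytes, a 13.96-fold ratio. In members Bhmt was at 549.5 CPM under hashtag 1, 509 CPM under hashtag 2 and 1348 CPM under hashtag 3, and in Car3-0 hepatocytes at 86.1, 31.3 and 76.4 CPM. Every mouse was far higher in members than any mouse in Car3-0 hepatocytes, but the share of all genes without overlap was not counted. No test is given for members against Car3-0 hepatocytes, because genes of the same barcodes chose them.

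Barcodes next to the threshold lay between the groups. The 371 members with 2 Car3 UMIs, just inside, held 384 CPM of Bhmt and 1840 CPM of Gnmt. The 564 barcodes with 1 Car3 UMI, just outside, held 250 CPM of Bhmt and 1517 CPM of Gnmt. With 3 to 5, 6 to 10 and 11 or more Car3 UMIs Bhmt was at 807, 1130 and 1605 CPM, so it was higher in each successive class. Hpd, an enzyme of tyrosine breakdown, went from 412 CPM at 0 Car3 UMIs through 1000 CPM at 1 and 1202 CPM at 2 to 2341 CPM at 11 or more. Oat, a pericentral ornithine aminotransferase, went from 67.0 CPM at 0 to 716 CPM at 11 or more, and Pck1, the periportal enzyme that starts gluconeogenesis, from 22.1 to 263 CPM. Spp1 ran the other way, from 5089 CPM at 0 through 1803 CPM at 1 and 1504 CPM at 2 to 563 CPM at 11 or more. S100a6, a calcium-binding protein, went from 2572 CPM at 0 to 943, 644, 308, 302 and 279 CPM, with little difference among the last 3 classes.

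**Figure D1:**
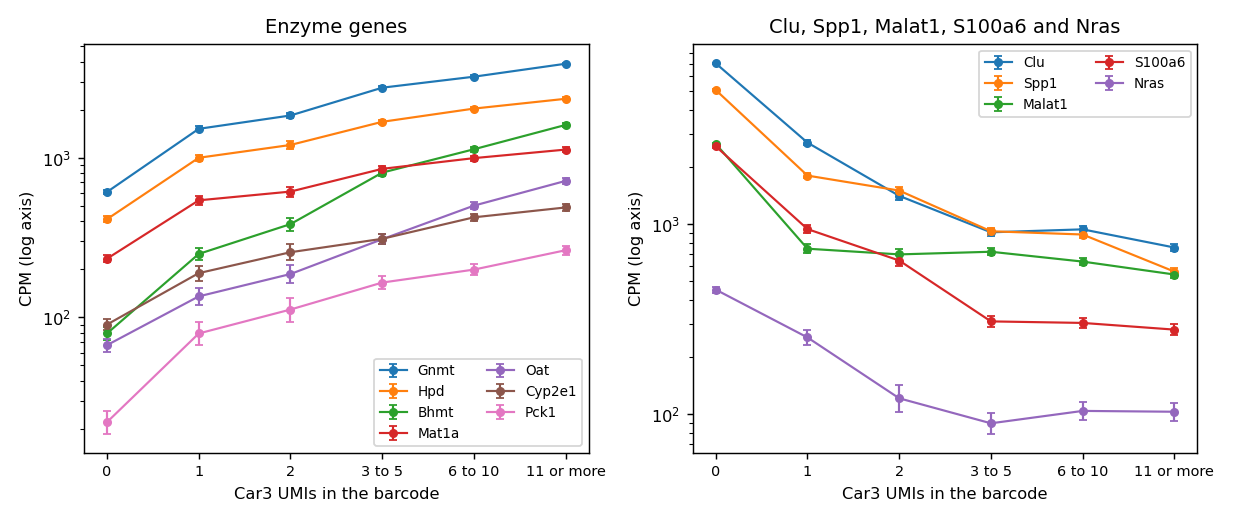
Levels of enzyme genes (left) and of Clu, Spp1, Malat1, S100a6 and Nras (right) by the number of Car3 UMIs in the barcode, in CPM on a log axis, with 95% counting intervals as bars. Bhmt goes from 79.3 CPM at 0 Car3 UMIs to 1605 CPM at 11 or more, and Spp1 from 5089 to 563 CPM.

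Depth per barcode moved with these levels. In members of 1000 to under 2000, of 2000 to under 4000 and of 4000 UMIs or more, Bhmt was at 1740, 1323 and 754 CPM, and Car3, bound by its minimum of 2 UMIs, at 4172, 3194 and 1953 CPM. In Car3-0 hepatocytes of the same bins Bhmt was at 141, 100 and 55.2 CPM. The difference between members and Car3-0 hepatocytes therefore stood in each bin. Spp1 was at 881, 685 and 961 CPM in members and 2634, 3711 and 6330 CPM in Car3-0 hepatocytes.

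Across all genes, a gene counted as apart where the level differed at least 2-fold on log2(CPM + 1), with at least 10 CPM in 1 of the groups. Of 6326 genes, 390 (6.17%) were higher and 806 (12.7%) lower in members. A second count needed the difference in the same direction in each of the 3 mice, and of 9586 genes it held 318 (3.32%) higher and 776 (8.1%) lower. Its minimum was looser, 10 CPM in 1 group of 1 mouse, which a few UMIs can reach. No T and NK marker was measured in the pool, yet 5 of 5 measured by mouse were lower in every mouse. With at least 20 UMIs over the mice in place of a CPM minimum, 282 of 7615 genes were higher and 553 lower in every mouse. Of the genes apart in the pool 32.6% were higher in members, and with TMM scaling, which centres the bulk of genes, 44.2% (514 higher and 649 lower). The median log2 ratio over all genes was 0.05, and 0.18 with TMM. With barcodes of 10% or more mitochondrial UMIs left out, 343 were higher and 637 lower in the pool. With barcodes that held other-cell markers left out, 368 were higher and 641 lower in the pool and 257 and 343 in every mouse. Of those called in every mouse, 153 higher and 197 lower genes were among the 318 and 776. The calls in every mouse also turned on the hashtag rule. With at least 10 hashtag UMIs and 80% of them from 1 hashtag asked for, 346 were higher and 682 lower in every mouse. They shared 188 and 344 genes with the main count, and members of hashtags 1, 2 and 3 then numbered 553, 19 and 96. When Car3-0 hepatocytes also had to hold 1 of the 4 genes of the rule, 130 genes were higher and 201 lower, against 390 and 806. Among the 119 members and 505 Car3-0 hepatocytes with 5% or more of hepatocyte genes, 632 were higher and 450 lower. With hashtag 1, 2 or 3 left out, so that only the other two mice had to differ, 580, 568 and 454 genes were higher and 1678, 1203 and 1180 lower in every mouse.

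The methionine cycle and methyltransferase genes were higher in members. Of 20 measured outside the rule, 11 were at least 2-fold higher and none lower, with a median log2 ratio of 1.03. In every mouse 11 of 21 were higher. With 1 of the 4 genes of the rule asked of Car3-0 hepatocytes 6 of the 20 were higher, with a median of 0.56. Mat1a, which makes S-adenosylmethionine, was at 707, 914 and 1092 CPM in members of hashtags 1, 2 and 3 and at 221, 154 and 121 CPM in Car3-0 hepatocytes. Ahcy was at 115, 109 and 107 CPM in members and at 24.6, 17.1 and 14.7 CPM in Car3-0 hepatocytes. Cth, which turns cystathionine into cysteine, was at 658, 581 and 777 CPM against 191, 128 and 112 CPM. In none of these genes did members overlap Car3-0 hepatocytes between mice, but they were named for large ratios. The share of all genes without overlap was not counted.

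Other carbonic anhydrases and the sulfotransferases were measured beside Car3 and Sult2a8. Car5a, the mitochondrial carbonic anhydrase of hepatocytes, was at 152, 148 and 209 CPM in members of hashtags 1, 2 and 3 and at 30.8, 17.1 and 20.6 CPM in Car3-0 hepatocytes. Car8, a form without enzyme activity, did not reach 2-fold, with 197 CPM in members and 135 CPM in Car3-0 hepatocytes. Of 12 sulfotransferase genes 6 were higher and 1 lower, with a median log2 ratio of 1.09, and 3 of 11 were higher in every mouse. Sult1a1, a phenol sulfotransferase, was at 395 CPM against 137 CPM, and Papss2, which makes the sulfate donor, at 99.2 CPM against 37.5 CPM. Near-identical Sult2a genes share reads, so Sult2a1 (223 against 188 CPM) and Sult2a8 are uncertain as single genes.

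Amino acid breakdown genes were higher in members. Of 20 measured 16 were at least 2-fold higher and none lower, with a median log2 ratio of 1.15, and 13 of 20 were higher in every mouse. Without transgene UMIs 10 were higher, and with 1 of the 4 genes asked of Car3-0 hepatocytes 4 were, with a median of 0.71. Hpd was at 1524, 1622 and 1837 CPM in members of hashtags 1, 2 and 3 and at 308, 182 and 206 CPM in Car3-0 hepatocytes, which is 4.72-fold in the pool. Agxt, which detoxifies glyoxylate, was at 713, 663 and 667 CPM in members and at 221, 122 and 85.3 CPM in Car3-0 hepatocytes. Gcdh, of lysine and tryptophan breakdown, was at 553 against 169 CPM in the pool. The 3 mice gave members nearly the same level of Agxt.

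Genes of both ends of the lobule were higher in members. Of 24 periportal genes 15 were higher and 2 lower, with a median log2 ratio of 1.21, and 11 of 24 were higher in every mouse. Of 18 pericentral genes, with Glul bounded by the rule, 9 were higher and 1 lower, with a median of 0.84, and 7 were higher and 1 lower in every mouse. With 1 of the 4 genes asked of Car3-0 hepatocytes 6 periportal and 8 pericentral genes were higher and none lower. Pck1 was at 159, 107 and 287 CPM in members of hashtags 1, 2 and 3 and at 49.2, 8.53 and 14.7 CPM in Car3-0 hepatocytes, and Tat, of tyrosine breakdown, at 168 against 37.2 CPM in the pool. Oat was at 162, 168 and 615 CPM in members and at 61.5, 48.3 and 85.3 CPM in Car3-0 hepatocytes. Cyp2e1, a pericentral P450, was at 266, 226 and 445 CPM against 111, 142 and 67.6 CPM, and its difference under hashtag 2 stayed under 2-fold. Cyp2a5 was the lower pericentral gene, at 35.0 against 123 CPM. Of 8 midzonal genes 2 were higher and 1 lower. Hamp2, whose reads its near-identical copy Hamp can share, was at 241 against 54.1 CPM, and Igfbp1 was at 98.2 against 452 CPM.

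Other metabolic lists were mixed. Of 22 cytochrome P450 genes 10 were higher and 2 lower, with a median log2 ratio of 0.69. Cyp2c50, at 95.8 against 10.4 CPM, and Cyp2c69 and Cyp2c40, at 151 against 25.1 and 77.6 against 22.9 CPM, belong to a family of near-identical genes and are uncertain as single genes. Of 19 fatty acid oxidation genes 11 were higher and none lower, with a median of 1.02, and 2 were higher with 1 of the 4 genes asked of Car3-0 hepatocytes. Ehhadh, the peroxisomal bifunctional enzyme, was at 94.4 against 29.2 CPM, and Eci1 at 487 against 195 CPM. Of 14 lipid synthesis genes 1 was higher and 3 lower, with a median of -0.45. The higher one was Thrsp, a lipogenic regulator, at 272 against 81.1 CPM. Of 20 glutathione and NRF2 genes 1 was higher, Gpx1 at 6517 against 1761 CPM, and 1 lower, Gsta1 at 123 against 698 CPM, whose near-identical copy Gsta2 was at 119 against 63.9 CPM.

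The 12 genes that rank highest by their smallest ratio over the 3 mice also held genes of no list above. Csrp3, a LIM-domain protein known from striated muscle, was at 115, 94.5 and 120 CPM in members of hashtags 1, 2 and 3 and at 12.3, 5.69 and 17.6 CPM in Car3-0 hepatocytes. Lin7a, a scaffold of cell polarity, was at 43.9, 37.0 and 45.4 CPM in members and at 0, 2.84 and 2.94 CPM in Car3-0 hepatocytes, where it rested on 0, 1 and 1 UMIs. Adh4, an alcohol dehydrogenase, was at 238 against 66.9 CPM in the pool, Gm4952 at 87.7 against 17.5 CPM, Acaa1b, a peroxisomal thiolase with a close copy, at 1173 against 202 CPM, and Apol9b, with the near-identical Apol9a, at 97.7 against 25.2 CPM. All 12 were higher in members in each mouse by the way they were ranked.

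**Figure D2:**
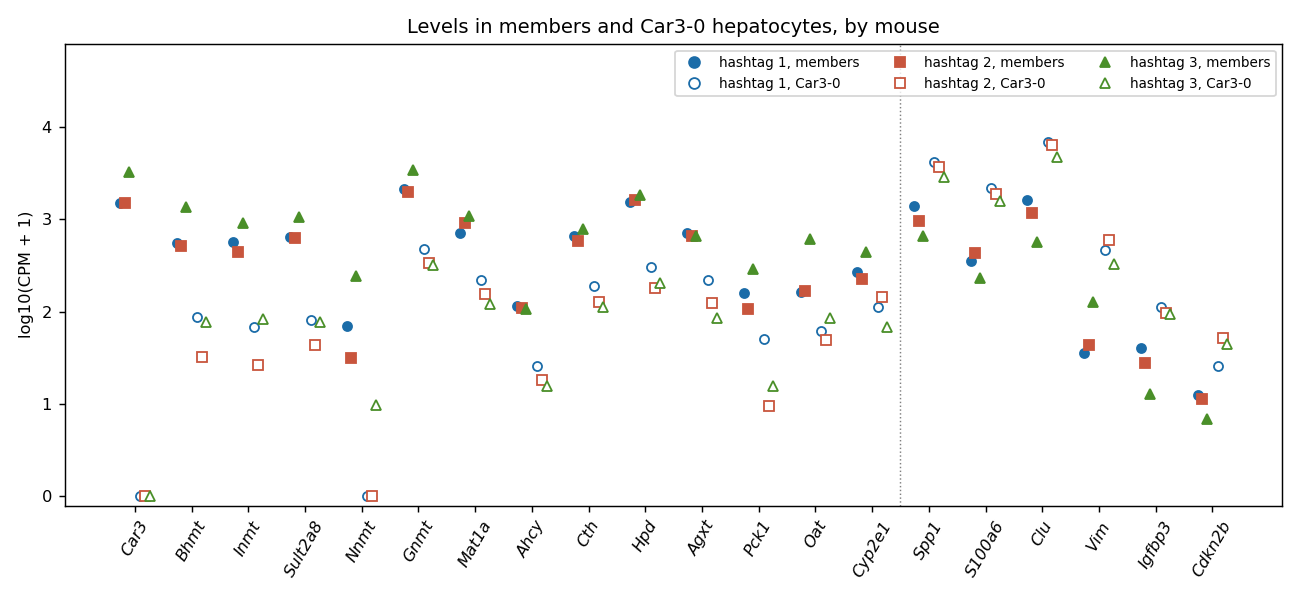
Levels of 20 genes in members (filled) and Car3-0 hepatocytes (open) of hashtags 1, 2 and 3, as log10(CPM + 1), with genes higher in members left of the dotted line and genes lower in members right of it. Each point is the sum over the called barcodes of 1 mouse. For Mat1a and Hpd, genes named for large ratios, every filled point lies above every open one.

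Progenitor, biliary and senescence genes were lower in members. All 12 measured progenitor and biliary genes were at least 2-fold lower, with a median log2 ratio of -2.21, and 6 of 14 were lower in every mouse. At 5% or more of hepatocyte genes 7 of the 12 were 2-fold lower, and with 1 of the 4 genes asked of Car3-0 hepatocytes 9 were. Spp1 was at 1406, 955 and 663 CPM in members of hashtags 1, 2 and 3 and at 4164, 3659 and 2910 CPM in Car3-0 hepatocytes. Vim, the intermediate filament of mesenchymal cells, was at 34.6, 43.1 and 127 CPM in members and at 461, 597 and 326 CPM in Car3-0 hepatocytes. Afp, the fetal plasma protein, was at 48.7 against 258 CPM in the pool. Tm4sf4 was at 132 against 625 CPM, and its difference under hashtag 1 stayed under 2-fold. For Spp1 and Vim, both named for large ratios, members of no mouse reached the lowest Car3-0 level.

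Of 11 senescence and secretory genes 10 were at least 2-fold lower in members and none higher, with a median log2 ratio of -1.85, and 5 of 14 were lower in every mouse. At 5% or more of hepatocyte genes 6 of the 11 were 2-fold lower, and with 1 of the 4 genes asked of Car3-0 hepatocytes 4 were and 1 was higher. Cdkn2b, the inhibitor p15, was at 11.5, 10.3 and 5.85 CPM in members of hashtags 1, 2 and 3 and at 24.6, 51.2 and 44.1 CPM in Car3-0 hepatocytes. Igfbp3, a secreted binder of insulin-like growth factors, was at 39.3, 26.7 and 11.7 CPM in members and at 111, 96.7 and 94.1 CPM in Car3-0 hepatocytes. Neither gene overlapped between the groups, but both were named for large ratios. Under hashtag 1 Cdkn2b rested on 5 UMIs in members and 4 in Car3-0 hepatocytes, and without transgene UMIs its log2 ratio there was 0.76. Ccl2, the monocyte chemokine, was at 10.4 against 50.6 CPM in the pool and Cxcl1 at 14.1 against 53.3 CPM. S100a6 was at 353, 431 and 230 CPM in members and at 2171, 1888 and 1593 CPM in Car3-0 hepatocytes, and Slpi, an inhibitor of leukocyte proteases, at 16.2, 18.5 and 7.32 CPM against 111, 125 and 215 CPM. The direction of Slpi did not hold in every setting: its log2 ratio was 3.40 under hashtag 2 with barcodes of other-cell markers left out and 0.35 under hashtag 3 without transgene UMIs, and in the pool it was -0.83 at 5% or more of hepatocyte genes, against -4.00.

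Immediate early genes, the first transcripts after growth factor or stress signals, were lower in 12 of 14 cases and higher in none, with a median log2 ratio of -1.57, and 7 of 16 were lower in every mouse. Fos was at 42.6 against 183 CPM in the pool, but under hashtag 1 at 94.7 against 98.4 CPM. Jun was at 48.5, 45.2 and 110 CPM in members of hashtags 1, 2 and 3 and at 178, 424 and 388 CPM in Car3-0 hepatocytes. Klf6 was at 14.7 against 54.4 CPM and Atf3 at 18.9 against 74.9 CPM in the pool. Hspa1b, a heat shock protein with the near-identical Hspa1a, was at 20.1 against 50.9 CPM. With barcodes of other-cell markers left out it was at 17.5 against 32.7 CPM, with log2 ratios of 4.09 under hashtag 1 and 0.27 under hashtag 3. At 5% or more of hepatocyte genes 5 of the 14 immediate early genes were 2-fold lower, with Fos, Jun and Atf3 at log2 ratios of -0.34, -0.32 and -0.51, and 7 were with 1 of the 4 genes asked of Car3-0 hepatocytes. Of 4 ERK feedback genes 2 were lower, and Phlda1 was at 140 against 161 CPM.

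Plasma protein genes were not uniformly high in members although the gate asked for 5 of them. Of 17 outside the rule 10 were at least 2-fold lower and none higher, with a median log2 ratio of -1.09, and 4 of 17 were lower in every mouse. Apoe was at 5090 against 18563 CPM, Trf, which carries iron, at 2630 against 9070 CPM, and Ambp at 481 against 1667 CPM. Clu, a secreted chaperone, was at 1612, 1171 and 572 CPM in members of hashtags 1, 2 and 3 and at 6820, 6345 and 4724 CPM in Car3-0 hepatocytes. Of 17 acute phase genes 7 were lower and 1 higher. Lcn2 was at 51.8 against 163 CPM and Hp, haptoglobin, at 1162 against 2911 CPM. Of the 13 mitochondrially encoded genes 12 were lower in the pool with a median of -1.55, but 2 in every mouse. Of 22 cytosolic ribosomal genes none differed 2-fold, with a median of -0.33. Of 16 interferon and lymphocyte chemokine genes 7 were lower and none higher, among them B2m at 1216 against 3669 CPM. At 5% or more of hepatocyte genes none of the plasma protein and none of the mitochondrial genes was 2-fold lower, Apoe, Trf, Ambp and Hp being at log2 ratios of -0.61, -0.73, -0.62 and -0.41 and Lcn2 at 0.08. With 1 of the 4 genes asked of Car3-0 hepatocytes, 5 plasma protein genes, 1 mitochondrial gene and no interferon gene were 2-fold lower.

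**Figure D3:**
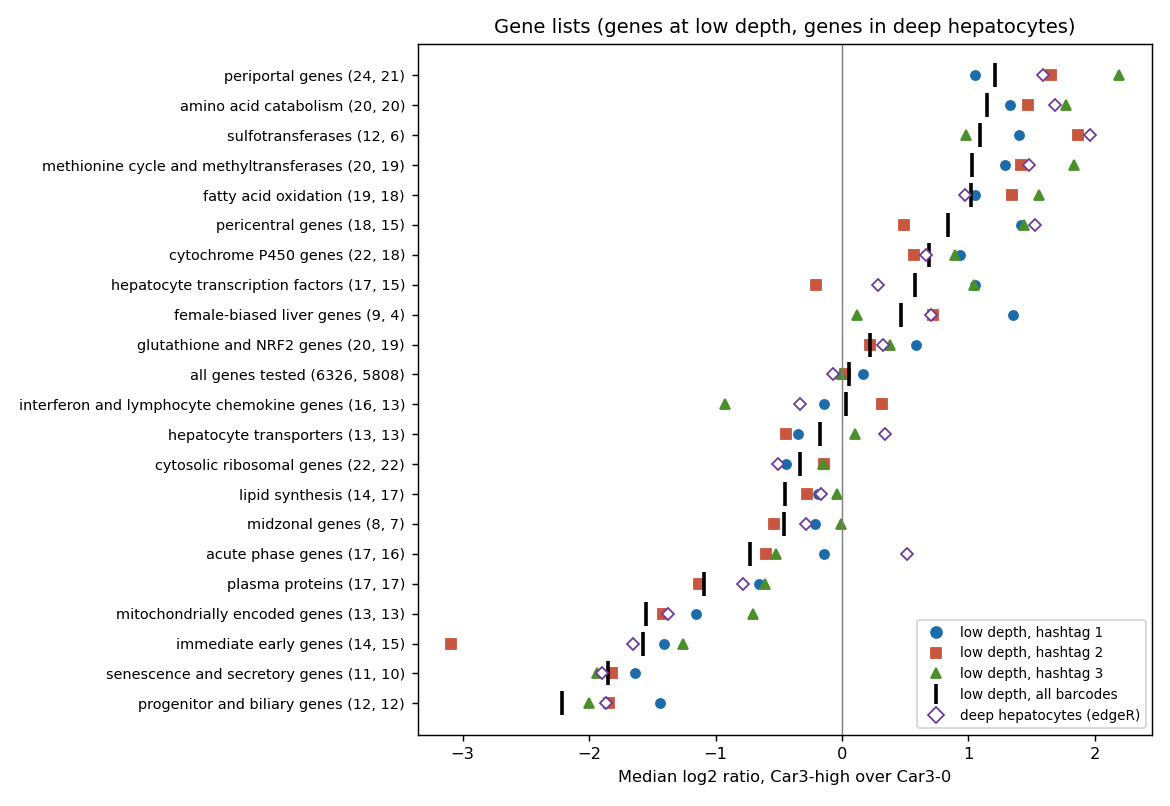
Median log2 ratio of Car3-high to Car3-0 hepatocytes for each gene list with at least 8 genes, at low depth over all barcodes (bars) and within hashtags 1, 2 and 3 (filled points), and as the edgeR fold change in deep hepatocytes (open diamonds); the numbers in brackets are the genes measured at low depth and in deep hepatocytes. Amino acid catabolism lies at 1.15 and progenitor and biliary genes at -2.21 at low depth, and acute phase genes lie at -0.73 at low depth and 0.52 in deep hepatocytes.

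Deep hepatocytes, which the rule does not contain, allowed a test. Each cell was thinned to 5000 UMIs, the same Car3 rule was applied to that part, and only the UMIs left over were summed per mouse and tested with edgeR's quasi-likelihood test with the mouse as a block and Benjamini-Hochberg adjustment. Of 2235 deep hepatocytes 155 (6.94%) were Car3-high in the thinned part, and 1925 under the Glul limit had no Car3 UMI in that part. Such Car3-0 cells could still hold Car3: their UMIs left over in the fit held 65, 350 and 14 Car3 UMIs under hashtags 1, 2 and 3. The fit held 30 Car3-high and 140 Car3-0 cells of hashtag 1, 38 and 1003 of hashtag 2, and 6 and 16 of hashtag 3. The groups also differed in depth and quality: the median was 13187, 31840 and 13074 UMIs in Car3-high cells against 52748, 46944 and 28702 UMIs in Car3-0 cells, and the mitochondrial share was 0.881%, 8.48% and 1.08% against 8.77%, 8.86% and 8.00%. Only under hashtag 2 was the mitochondrial share alike. Among cells of 20000 UMIs or more, where hashtags 1 and 2 entered, 517 genes rose and 238 fell. That fit held only 5 Car3-high against 127 Car3-0 cells of hashtag 1, and 27 against 958 of hashtag 2. The part of the mitochondrial share was not tested.

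Of 5808 genes, 321 (5.53%) rose and 125 (2.15%) fell in deep Car3-high cells at an adjusted p under 0.05. Of the 318 genes higher in every mouse at low depth 223 could be tested, of which 153 (68.6%) rose, none fell and 218 had a positive fold change. Of the 776 lower genes 375 could be tested, of which 51 (13.6%) fell, none rose and 336 had a negative fold change. Over all genes 45.4% had a positive fold change. These counts turned on hashtag 1: without it edgeR gave 2 genes higher and 0 lower, with 495 at an unadjusted p under 0.05 against 1274 with all mice. The 2 genes, seen after the fit, were Cyp4a14 (log2 fold change 5.71) and B630019A10Rik (4.37). Without hashtag 2 the counts were 255 and 215, and without hashtag 3 they were 433 and 172.

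Most genes of methyl and amino acid metabolism rose. Car3, Sult2a8, Inmt, Gnmt and Nnmt, which chose the cells in the thinned part, were at log2 fold changes of 5.87, 4.91, 4.80, 4.36 and 4.10 in the UMIs left over, given as a description. Of 19 methionine cycle and methyltransferase genes outside the rule 15 rose and none fell, with a median log2 fold change of 1.48. Bhmt was at 246, 173 and 965 CPM in Car3-high cells of hashtags 1, 2 and 3 and at 19.4, 14.3 and 17.1 CPM in Car3-0 cells, a log2 fold change of 4.0 (SE 0.347, adjusted p = 0.00042 by edgeR). Mat1a rose by 3.28 (SE 0.301, adjusted p = 0.00042), Cth by 2.49 (SE 0.338, adjusted p = 0.00217) and Ahcy by 1.80 (SE 0.326, adjusted p = 0.00852) on the log2 scale, each in all 3 mice. Of 20 amino acid catabolism genes 17 rose and none fell, with a median of 1.69. Hpd, the highest gene outside the rule, was at 919, 500.3 and 1793 CPM against 35.8, 37.7 and 17.1 CPM, a log2 fold change of 4.67 (SE 0.423, adjusted p = 0.00042). Agxt rose by 4.0 (SE 0.335, adjusted p = 0.000383). In Bhmt and Hpd, both among the largest fold changes, the groups did not overlap between mice. The share of all genes tested without such overlap was not counted.

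Of 21 periportal genes 12 rose and of 15 pericentral genes 8 rose, and none of either fell, while the other 16 did not pass. Of 7 midzonal genes 3 rose and 2 fell, with a median log2 fold change of -0.28. Pck1 rose by 3.54 (SE 0.376, adjusted p = 0.000657), Tat by 3.26 (SE 0.312, adjusted p = 0.000426) and Rgn, regucalcin, by 4.33 (SE 0.384, adjusted p = 0.00042). Cyp2e1 rose by 3.12 (SE 0.365, adjusted p = 0.00103) and Oat by 2.12 (SE 0.404, adjusted p = 0.0103). Nr1i3, the nuclear receptor CAR, rose by 3.73 (SE 0.515, adjusted p = 0.0023) and was the one gene to pass among 15 hepatocyte transcription factors. All 6 sulfotransferase genes tested and 7 of 18 fatty acid oxidation and 7 of 18 P450 genes rose, and Cyp3a11 was highest among these P450 genes at 3.97 (SE 0.366, adjusted p = 0.00042). Car5a rose by 4.14 (SE 0.402), Csrp3 by 4.35 (SE 0.434), Hamp2 by 4.13 (SE 0.505), Gm4952 by 3.9 (SE 0.465) and B630019A10Rik by 4.38 (SE 0.627), which with Hpd, Rgn, Bhmt, Agxt and Cyp3a11 are the 10 highest outside the rule.

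Of 12 progenitor and biliary genes 8 fell, with a median log2 fold change of -1.86, and of 10 senescence and secretory genes 6 fell, with a median of -1.90. Of 15 immediate early genes 6 fell and 9 did not pass, of 7 ERK feedback genes 3 fell, and none in these 4 lists rose. Spp1 was at 1716, 1804 and 78.8 CPM in Car3-high cells of hashtags 1, 2 and 3 and at 10030, 6504 and 4560 CPM in Car3-0 cells, a log2 fold change of -3.07 (SE 0.671, adjusted p = 0.0204). Vim was at -3.00 (SE 0.385, adjusted p = 0.00162), Igfbp3 at -3.49 (SE 0.519, adjusted p = 0.00334) and Cdkn2b at -2.87 (SE 0.381, adjusted p = 0.00192). S100a6 was at -2.88 (SE 0.69, adjusted p = 0.0299), Tm4sf4 at -2.87 (SE 0.618, adjusted p = 0.0187) and Igfbp1 at -3.19 (SE 0.573, adjusted p = 0.00836). Nrk, a kinase gene, had no UMI in the Car3-high cells of any mouse, where 3 UMIs would be 7.62, 2.68 and 59.1 CPM, and 40.4, 22.7 and 83.2 CPM in Car3-0 cells. Emp1, an ERK output gene, had 1 UMI over all Car3-high cells and 24.0, 14.4 and 31.8 CPM in Car3-0 cells. Sema3e, Fhl2, Pcdh7 and Tspan8, at -3.18, -3.16, -3.04 and -2.96, complete the 10 lowest.

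Several low-depth differences did not pass in deep hepatocytes. None of 17 plasma protein genes passed, with a median log2 fold change of -0.79, Apoe at -1.02 (adjusted p = 0.335) and Trf at -1.29 (adjusted p = 0.181). Clu, at -2.81, missed the threshold (adjusted p = 0.0564), and so did Afp, Fos and Jun at -1.61, -1.82 and -1.66 (adjusted p = 0.166, 0.095 and 0.113). None of the 13 mitochondrially encoded genes passed, with a median of -1.38, nor did any of 22 ribosomal or 13 interferon genes. Lcn2, lower at low depth in every mouse, had a fold change of 0.50 (adjusted p = 0.405), and of 16 acute phase genes 3 rose and 1 fell.

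Endothelial genes had ratios of opposite sign at the 2 depths. Low-depth log2 ratios were -1.28 for Kdr, -1.09 for Aqp1, -1.02 for Dnase1l3 and -0.80 for Fcgr2b, while deep fold changes were 2.63, 2.86, 2.85 and 2.59, none past the threshold (adjusted p = 0.127, 0.0659, 0.0578 and 0.0999). In all, 48 genes had a low-depth ratio under -0.5 and a deep fold change over 1.5, among them all 8 endothelial markers, and 1 of the 48, Clec4g, passed the test. This group was chosen after its values were seen. Other-cell markers summed to 895, 15.3 and 2625 CPM in deep Car3-high cells of hashtags 1, 2 and 3 and to 29, 21.2 and 872 CPM in Car3-0 cells. With cells that held such markers left out, hashtag 3 no longer entered, and 554 genes rose and 333 fell over hashtags 1 and 2.

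**Figure D4:**
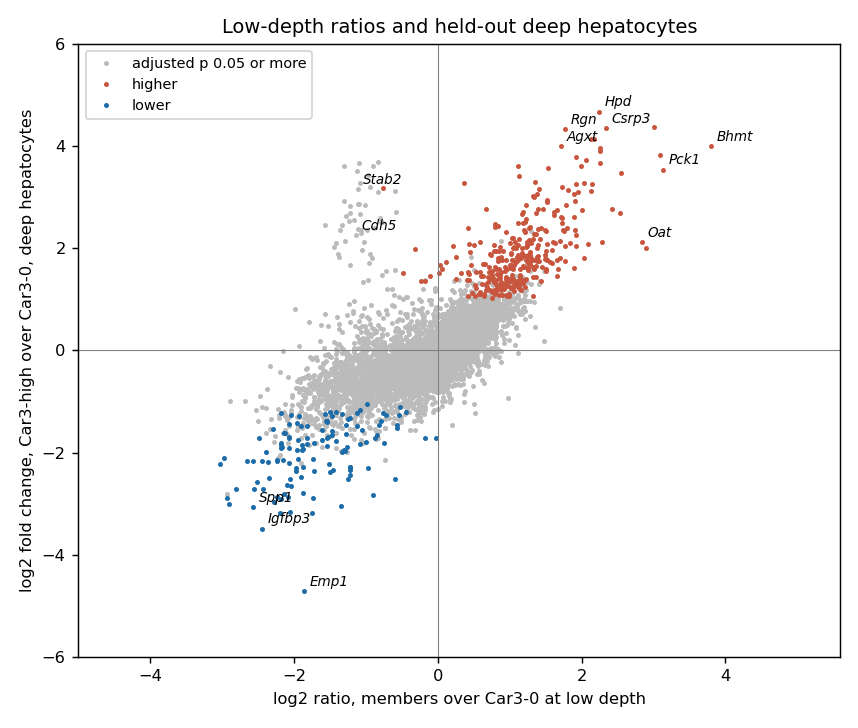
Each gene's log2 ratio of members to Car3-0 hepatocytes at low depth against its log2 fold change in the held-out UMIs of deep hepatocytes, coloured by the deep test. Bhmt lies at 3.80 and 4.0, and the separate cloud at the upper left, with Stab2 and Cdh5, holds the 48 genes with opposite directions; Nrk, at -11.03 in deep hepatocytes, lies off the axis.

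The transgene was not part of the rule. Nras counts mix the mouse gene with the injected NRAS, and mVenus comes from the transposon alone. Nras was at 102 CPM in members (95.9 to 108) and 453 CPM in Car3-0 hepatocytes, against 837 CPM in deep hepatocytes and 131 CPM in endothelial-like barcodes. Members of hashtags 1, 2 and 3 were at 55.4, 98.6 and 101 CPM and Car3-0 hepatocytes at 399.8, 375 and 153 CPM, so every mouse was lower in members. Under hashtag 1, 45 of the 65 Nras UMIs of Car3-0 hepatocytes were in 1 barcode, and with the barcode of most Nras UMIs left out in each group the levels were 51.7, 88.0 and 93.2 CPM in members and 126, 291 and 139 CPM in Car3-0 hepatocytes. The intervals then overlapped under hashtag 1 (32.4 to 78.3 and 76.8 to 194 CPM) and hashtag 3 (71.6 to 119 and 102 to 185 CPM). By Car3 class Nras went from 453 CPM at 0 Car3 UMIs to 254 CPM at 1 and 121 CPM at 2, and was between 89.6 and 104 CPM beyond. In deep cells Nras was at 215, 111 and 24.8 CPM in Car3-high cells and at 1283, 856 and 1467 CPM in Car3-0 cells. The 24.8 CPM of hashtag 3 rested on 2 UMIs. With the gate thinned to 3000 UMIs, Car3-high cells were at 87.6, 825 and 62.1 CPM and Car3-0 cells at 1247, 851 and 1467 CPM. The difference under hashtag 2 was then nearly gone, with 460 Nras UMIs in 18 Car3-high cells. Levels without the largest barcode were not computed for deep cells.

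mVenus did not follow Nras. It was at 35.6 CPM in members (32.1 to 39.5), 25.4 CPM in Car3-0 hepatocytes (21.6 to 29.6), 66.5 CPM in deep hepatocytes and 17.8 CPM in endothelial-like barcodes (12.7 to 24.2). After each barcode was thinned to 1000 UMIs, 3.73% of members held an mVenus UMI (3.12 to 4.43%), against 2.13% of Car3-0 hepatocytes (1.51 to 2.91%) and 1.67% of endothelial-like barcodes (0.765 to 3.14%). The share in Car3-0 hepatocytes lay within the interval of the endothelial-like barcodes. Before thinning the shares were 8.15%, 5.27% and 5%, at median depths of 2419, 2944 and 3683 UMIs. By mouse the direction was not shared: members of hashtags 1, 2 and 3 held 4, 3 and 32 mVenus UMIs, which is 9.24, 6.16 and 46.8 CPM, and Car3-0 hepatocytes held 2, 12 and 5 UMIs, which is 12.3, 34.1 and 14.7 CPM. The difference in the pool thus rested on hashtag 3 and the uncalled barcodes, where members were at 37.9 CPM and Car3-0 hepatocytes at 25.9 CPM.

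**Figure D5:**
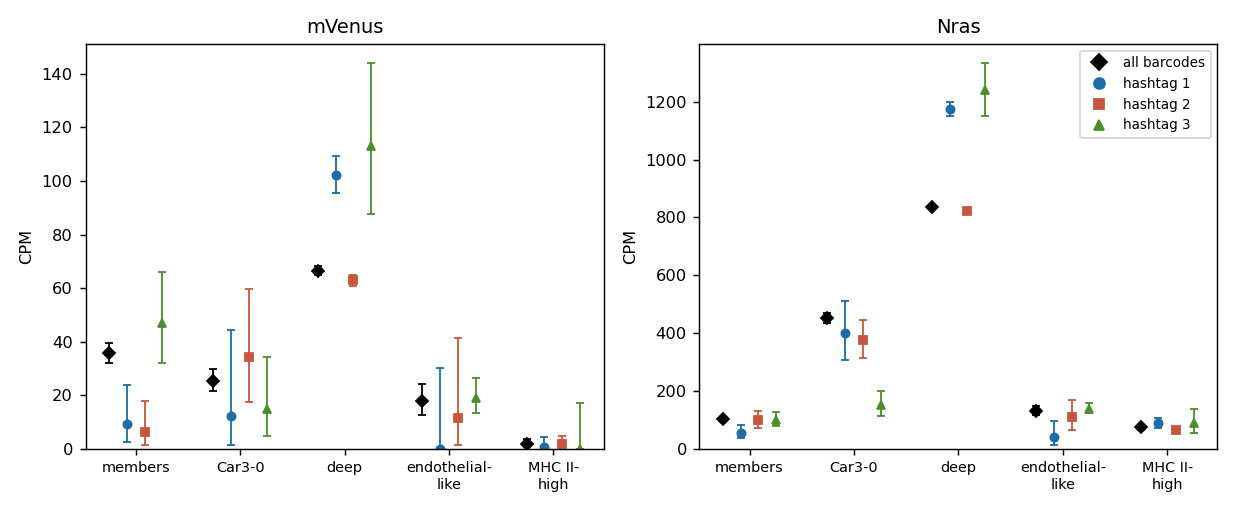
mVenus (left) and Nras (right) in CPM with 95% counting intervals for members, Car3-0 hepatocytes, deep hepatocytes, endothelial-like and MHC II-high barcodes, over all barcodes (black) and by hashtag. Nras lies at 102 CPM in members and 453 CPM in Car3-0 hepatocytes, and mVenus at 35.6 and 25.4 CPM.

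Levels were also set for barcodes without any transgene UMI. Among the 2453 members and 1216 Car3-0 hepatocytes with no Nras and no mVenus UMI, 318 genes were higher and 818 lower in the pool and 312 and 863 in every mouse. Among deep cells with no Nras UMI in the thinned part, 59 Car3-high against 594 Car3-0 cells, 210 genes rose and 99 fell.

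Members were found in all 3 mice. They made up 55.1% of the gated hepatocytes called for hashtag 1 (97 of 176, interval 47.4 to 62.6%), 47.0% for hashtag 2 (102 of 217, 40.2 to 53.9%) and 58.4% for hashtag 3 (202 of 346, 53.0 to 63.6%), and 59.4% of uncalled barcodes. Hashtag 2 was lowest, and at these unequal depths its interval overlapped those of hashtags 1 and 3. Median depths were 3357, 4018 and 2217 UMIs in the same order. When each barcode was thinned to 1000 UMIs, the shares that held at least 1 Car3 UMI were 46.6% (39.1 to 54.2%), 37.8% (31.3 to 44.6%) and 57.5% (52.1 to 62.8%). At this equal depth the intervals of hashtags 2 and 3, which cover counting error only, did not overlap. With 1 mouse a hashtag no test between mice was made.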

How the data were processed

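UMI counts per gene and barcode, and hashtag UMI counts per barcode, were used as the authors deposited them, without normalization. The submitters' processing notes name Cell Ranger 2.1.1 and mm10, and the header of the gene matrix names Cell Ranger 3.0.2. Hashtags were called with HTODemux of Seurat 5.3.0 (positive quantile 0.99); barcodes called for 2 hashtags entered no value per mouse, and no other doublet caller was run. The table's 170054 unmapped hashtag UMIs were not used.

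The members, the gene lists and the alternatives were chosen with earlier results of these data known. The rows for Nras, mVenus and the hashtags stayed out of library sizes. CPM were summed over barcodes, with exact Poisson and exact binomial (Clopper-Pearson) intervals. Thinning drew UMIs without replacement from a fixed seed. Deep hepatocytes were tested with edgeR 4.0.16 (TMM, filterByExpr, quasi-likelihood, hashtag block), with each hashtag as 1 mouse. The p-values rest on the spread between 3 mice, estimated for each gene in part from the spread of the other genes. DESeq2 1.42.0 was an alternative. On simulated counts for 5406 genes this test recovered 161 of 200 genes changed 4-fold (80.5%). The simulation had 1 dispersion for all genes and no difference between mice, and only genes of higher counts were changed. The share recovered therefore does not give the power of the test in these 3 mice.

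Genes were named by a rule: the 12 highest and 12 lowest by their smallest ratio over mice at 50 CPM or more, the 6 markers, up to 4 genes a list, and the 10 highest and 10 lowest in the deep test, leaving out the genes that chose the members, an exception that was not part of the rule for the deep test. This rule picks genes of large ratios, and the share of all genes whose groups did not overlap between mice was not counted. The exceptions named as chosen after their values were seen are Cyp4a14, Clec4g, Stab2 and Cdh5. Leaving out barcodes with transgene UMIs, deep cells with other-cell markers, and the barcode with most Nras UMIs were alternatives added after seeing the data. Software was R 4.3.3, Python 3.11.15, numpy 2.4.6, pandas 2.3.3 and scipy 1.17.1.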

Additional observations from a re-analysis of the deposited data

How the results depend on the processing

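Members and Car3-0 hepatocytes came from 1 library of 3 mice, and 87.4% of members had no hashtag call. At a median of 2419 UMIs, genes under 10 CPM in both groups were left out of the main count in the pool. In the main count by mouse 10 CPM in 1 group of 1 mouse was enough. The named low-depth ratios were most often moved by asking 1 of the 4 genes of Car3-0 hepatocytes too and by a 5% hepatocyte minimum. Causes were not tested, apart from settings that by construction test fewer genes or cells.

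Genes higher and lower in the pool (390 and 806) and in every mouse (318 and 776) were 130 and 201, and 194 and 156, with 1 of the 4 genes asked of Car3-0 hepatocytes; 238 and 268, and 206 and 345, with a 50 CPM minimum; 231 and 342, and 189 and 210, with a pseudocount of 10; and 1017 and 1313, and 777 and 1361, at 1.5-fold. With hepatocyte genes at 5% or more the pool gave 632 and 450, and no hashtag entered. Without other-cell markers 343 were lower in every mouse, and with no CPM minimum 1482 were lower in the pool. Leaving out 1 mouse gave 454 to 580 higher and 1180 to 1678 lower in the others.

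The deep test (321 and 125) gave 517 and 238 at 20000 UMIs or more and 554 and 333 without other-cell markers, both over hashtags 1 and 2 only. It gave 377 lower with no filter, 83 lower with the gate thinned to 3000 UMIs, and 210 higher with Nras 0. Without the replicate block, that is without pairing by mouse, 457 rose and 192 fell. Leaving out 1 mouse gave 2 to 433 higher and 0 to 215 lower.

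mVenus shares were 8.15% and 5.27% without thinning. Without the barcode with most Nras UMIs, Nras in Car3-0 hepatocytes was at 398 CPM in the pool, 126 CPM in hashtag 1, 291 CPM in hashtag 2 and 414 CPM in uncalled barcodes. The share of members was 46.6% in hashtag 1 and 37.8% in hashtag 2 with barcodes thinned to 1000 UMIs and 1 Car3 UMI asked for, and 32.8% in hashtag 2 when a hashtag call needed at least 10 hashtag UMIs and 80% of them from 1 hashtag.

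Over the named genes and the alternatives, 1174 low-depth ratios moved by less than the spread between mice or not at all. Another 150 moved by more, and 8 that were at least 2-fold changed sign. Asking for 1.5-fold, for 50 CPM or for 20 UMIs cannot change a ratio, and each of these settings adds 111 to the 1174. In deep hepatocytes 1154 kept their side of the threshold, 74 passed it newly, 105 no longer passed (64 of them without hashtag 1), and no called gene changed sign. Reversed low-depth ratios were Lcn2 at 0.084, Kdr at 0.043 and Hbb-bs at -0.54 with hepatocyte genes at 5% or more, Kdr at 0.087, Aqp1 at 0.15 and Dnase1l3 at 0.13 with 1 of the 4 genes in Car3-0 hepatocytes, and Kdr at 0.70 and Dnase1l3 at 0.57 without other-cell markers, a setting that removes barcodes by these genes.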
